A study of Caenorhabditis elegans with 2 samples.

Results

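The clusters described here are the nuclear non-coding RNA regions that remain once the large RNA classes are set aside. They carry a label of non-coding RNA, small cytoplasmic RNA (scRNA), non-coding exon or non-coding transcript on their own strand, and no label of rRNA, tRNA, snRNA, snoRNA, miRNA or piRNA. They numbered 353 of the 49562 clusters on the nuclear chromosomes and held 2285 of 1410936 reads, or 0.162% (exact 95% interval 0.155 to 0.169). A further 2347 clusters with one of these labels were left out, 33 of them mitochondrial and the others because they also carry the label of a large class. 1915 of those left out were piRNA clusters. The pseudogene label that the rule names is on no cluster of the whole list, so pseudogenes could not be found by label.

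The source was whole worms (Caenorhabditis elegans) labelled fem-1, a name shared with a gene of sex determination, and the labels give no further genotype, age or treatment. The library was prepared for small RNAs with a 5′ monophosphate, and reads of 18 to 26 nt were selected according to the name of the list. A second library, treated with polyphosphatase, was not analysed here. With 1 library there was no replicate and no test, and every interval is an exact 95% interval for counting error only. In whole worms, fewer cells of a type and less RNA per cell cannot be told apart.

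Structured non-coding RNAs are cut and trimmed in cells, and fragments with a 5′ monophosphate can enter a small RNA library beside miRNAs and piRNAs. RNase P and RNase MRP are ribonucleoproteins that cut precursors of tRNA and rRNA, and Y RNA is a small RNA bound by the Ro protein. Long non-coding transcripts, and non-coding splice forms of coding genes, can also serve as templates or targets of antisense siRNAs in worms.

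The clusters fell into 3 groups by their labels. The first group carried the label of a non-coding exon. It held 53 clusters of 27 genes and 1475 reads, or 64.6% of the reads (62.6 to 66.5). The second held 36 clusters of 10 genes that have a non-coding transcript and no coding label, with 122 reads (5.34%, 4.45 to 6.34). The third was made of non-coding transcripts of protein-coding genes, with 264 clusters of 50 genes and 688 reads (30.1%, 28.2 to 32.0). By clusters the order was reversed, since the third group made up 74.8% of clusters (69.9 to 79.2) and the non-coding exon genes 15.0% (11.5 to 19.2).

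By single label, the non-coding RNA label was on 347 clusters with 2191 reads in 84 genes, at a median width of 23 nt and a range of 18 to 193 nt. The non-coding exon label was on 53 clusters with 1475 reads in 27 genes, at a median width of 26 nt and up to 122 nt. The non-coding transcript label was on 274 clusters with 760 reads in 59 genes, with a median width of 23 nt. The scRNA label was on 2 clusters of yrn-1, which were 31 and 39 nt wide and held 89 reads. A cluster can carry several of these labels, and 47 clusters with 1381 reads carried both the exon and the non-coding RNA label.

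**Figure D1:**
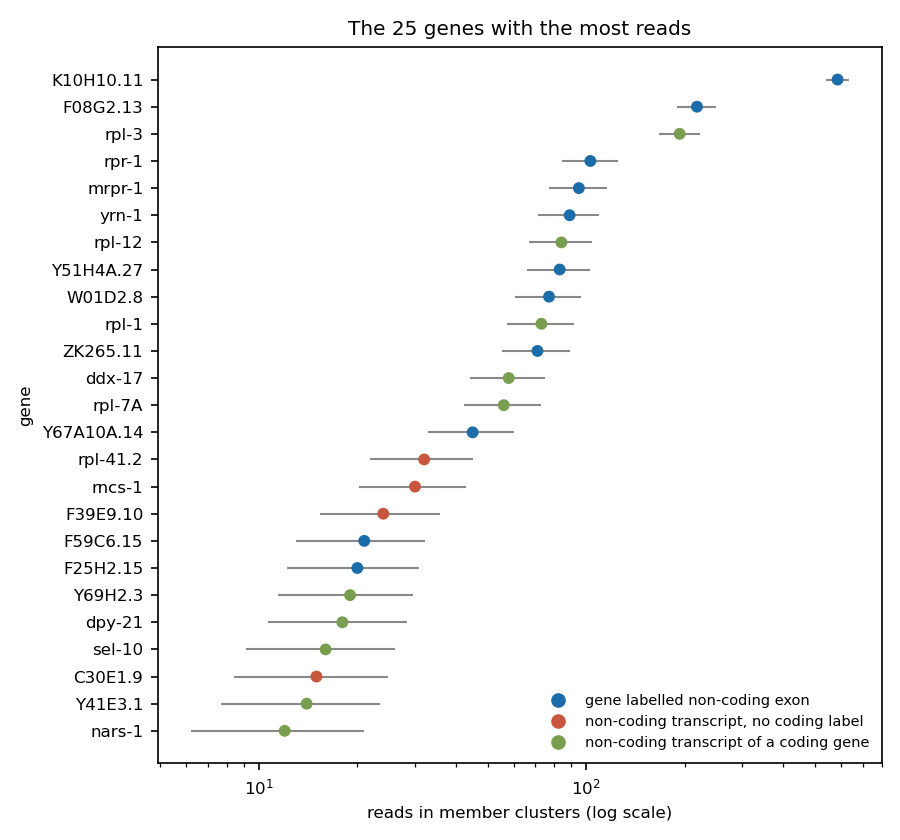
Reads per gene for the 25 genes with the most reads, on a log scale, with exact 95% Poisson intervals as bars and colours for the 3 groups of labels. K10H10.11, with 586 reads, stands above F08G2.13 with 218 and rpl-3 with 193.

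The reads were concentrated in a small number of genes. K10H10.11 alone held 25.6% of them (23.9 to 27.5), the leading 5 genes held 52.3% (50.2 to 54.4) and the leading 10 held 70.1% (68.1 to 71.9). At the other end, 21 of the 87 genes had 1 read, 38 had 2 to 9 reads, and the median gene had 5. The 20 clusters with the most reads held 1502 reads, or 65.7% of all. Of these 20 clusters, 13 belonged to non-coding exon genes, 6 to non-coding transcripts of coding genes, and 1 to rpl-41.2.

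K10H10.11 (WBGene00044968), a non-coding gene of unassigned role, had 586 reads (95% Poisson interval 540 to 635) in 2 clusters on the plus strand of chromosome II. The first, at 14496993 to 14497040, held 544 reads of 58 distinct sequences over 48 nt. The second, at 14497043 to 14497074, held 42 reads over 32 nt and began after a gap of 2 nt. The first cluster thus held 92.8% of the reads of the gene, at 11.3 reads per nt against 1.31 in the second.

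F08G2.13 (WBGene00045119), also without an assigned role, had 218 reads (190 to 249) of 53 distinct sequences in a single cluster of 82 nt at II 13834351 to 13834432 on the minus strand. Its neighbour on the same chromosome and strand, F08G2.12, had 10 reads, 9 of them at 13834793 to 13834818. The level per covered nt was 2.66 reads in F08G2.13 and 0.213 in F08G2.12. W01D2.8, inside an intron of W01D2.3, had 77 reads (60.8 to 96.2) in 1 cluster of 79 nt at II 14801250 to 14801328. Chromosome II, which holds these genes and K10H10.11, held 45.8% of all reads. ZK265.11 (WBGene00045370) on chromosome I had 71 reads (55.5 to 89.6), which were split nearly evenly between clusters of 31 nt and 43 nt with 33 and 38 reads and a gap of 7 nt.

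The RNA subunits of both ribonucleases had reads in several clusters. The RNase P RNA, rpr-1 (Y48G10A.7), had 103 reads (84.1 to 125) in 4 clusters that covered 230 nt of a 254 nt span on chromosome I. From the 5′ side the clusters held 52, 15, 1 and 35 reads, with gaps of 14, 6 and 4 nt. The leading cluster lay at 13463943 to 13464050, and the gene lies opposite an intron of a coding gene. The RNase MRP RNA, mrpr-1 (E04F6.16), lies inside intron 2 of E04F6.2 and had 95 reads (76.9 to 116) in 3 clusters. These held 7, 21 and 67 reads from the 5′ side, so that 70.5% lay in the last cluster, at II 7200309 to 7200360, after a gap of 35 nt. Per nt, the last cluster was the highest in both genes, at 0.614 reads in rpr-1 against 0.481 in its first cluster, and at 1.29 in mrpr-1 against 0.304.

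The Y RNA, yrn-1 (F55G1.16), had 89 reads (71.5 to 110) in 2 clusters separated by 37 nt without reads. The 5′ cluster, at IV 7499492 to 7499530, held 42 reads over 39 nt, and the 3′ cluster, at 7499568 to 7499598, held 47 reads over 31 nt. Per nt the clusters held 1.08 and 1.52 reads.

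**Figure D2:**
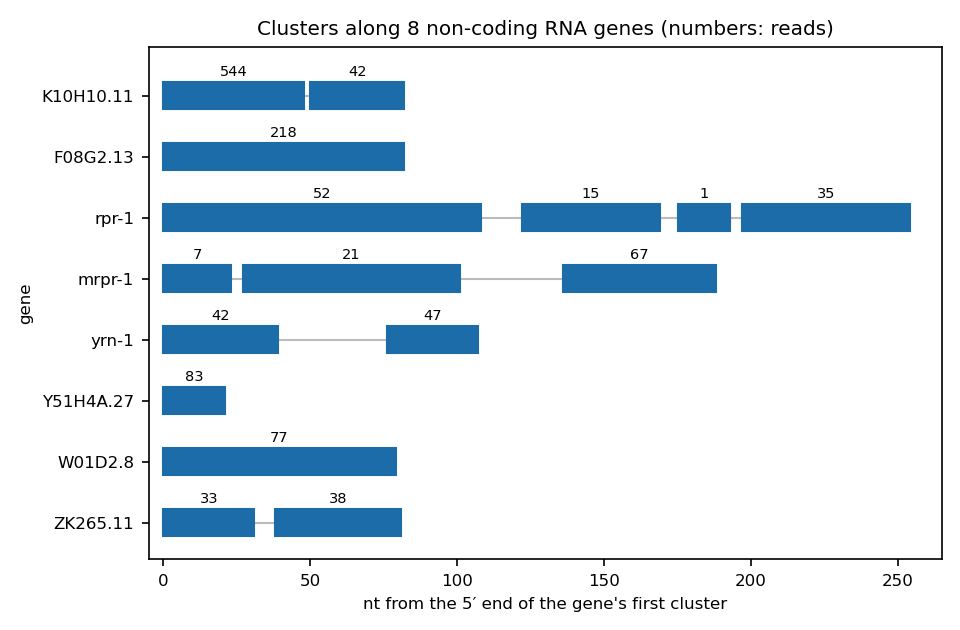
Clusters along 8 non-coding exon genes, drawn in nt from the 5′ end of the first cluster of each gene, with the number of reads above each box. yrn-1 has 2 boxes with 42 and 47 reads on either side of a gap, whereas F08G2.13 and W01D2.8 are each covered by a single box.

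Y51H4A.27 (WBGene00003296) differed in form from these genes. All of its 83 reads (66.1 to 103) were 1 sequence, in a cluster of exactly 21 nt at IV 16717339 to 16717359, with no edit to the genome. The cluster also carries a label of a DNA transposon repeat. The nearest annotated piRNA cluster lay 646 nt away. Of 1183 annotated piRNA clusters that were 21 nt wide and made of 1 sequence, 3 had at least as many reads, the highest having 155. Of all 1544 annotated piRNA clusters of 21 nt, with 1 or more sequences, 33 had at least as many. Among the clusters described here, 239 consisted of 1 sequence, and 229 of these were single reads. The next highest had 5 reads, in C27H2.2.

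The number of distinct sequences separated genes of similar depth. Among the 8 genes with 71 to 103 reads, Y51H4A.27 had 1 distinct sequence, yrn-1 20, W01D2.8 24 and ZK265.11 28. mrpr-1 had 56, rpl-12 64, rpl-1 69 and rpr-1 84. Per 100 reads this was 22.5 in yrn-1, 58.9 in mrpr-1 and 81.6 in rpr-1, against 94.5 in rpl-1. In yrn-1 and W01D2.8 few sequences were thus read repeatedly, whereas nearly every read of rpl-1 was a different sequence. The genes were not matched for covered length, which was 70 nt in yrn-1, 79 nt in W01D2.8 and 392 nt in rpl-1. The part of covered length in this difference was not tested.

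**Figure D3:**
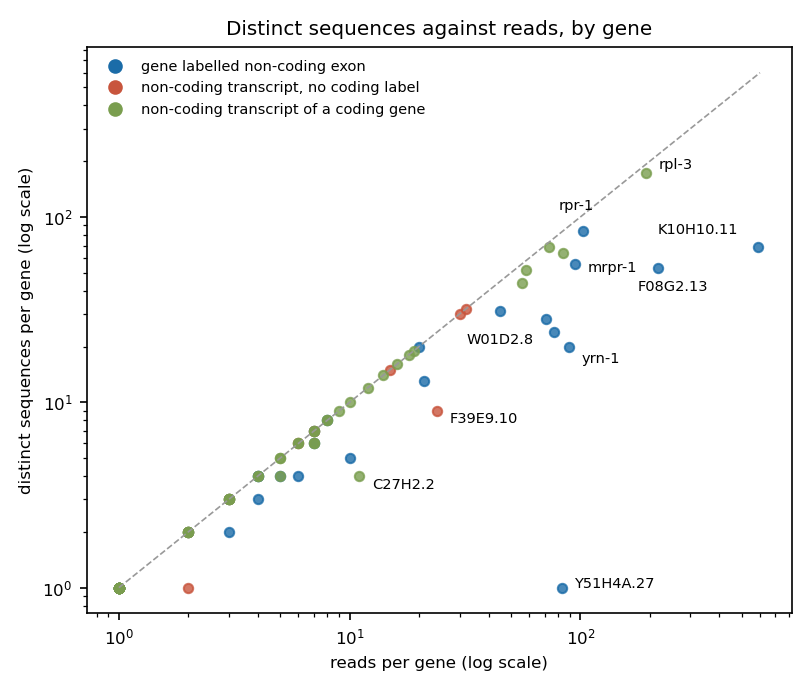
Distinct sequences against reads for each of the 87 genes, both on log scales, with a dashed line where every read is a different sequence. Y51H4A.27 (83 reads, 1 sequence) and K10H10.11 (586 reads, 69 sequences) lie far below the line, and rpl-3 (193 reads, 173 sequences) lies close to it.

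The other non-coding exon genes had 45 reads or fewer. Of the 27 genes, 8 had at least 50 reads, 4 had 10 to 45, 11 had 2 to 9 and 4 had 1. Among them, 3 genes that the WBcel235 gene table lists as snoRNA carried no snoRNA label in the deposited annotation. They were Y67A10A.14 with 45 reads (122 nt, IV 14326917 to 14327038), F59C6.15 in an intron of nlp-4 with 21 reads (63 nt, I 10516967 to 10517029) and F25H2.15 with 20 reads (78 nt, I 10565349 to 10565426). The uniqueness value, a measure in the deposited list of how unique the placement of reads was, on a scale the list does not define, was 24, 3 and 13 for these clusters, against a median of 42 over all nuclear clusters. Y45F10B.16 with 4 reads and D1086.13 with 1 read are listed there as snRNA. By place, 9 clusters of the group with 202 reads lay in a coding intron on the same strand, among them those in daf-4, tba-7 and cco-1. A further 8 clusters with 198 reads lay opposite a coding intron, and 29 clusters with 1066 reads had no coding label on either strand. The 7 clusters in a coding exon on the same strand, 6 of R166.6 in mnk-1 and 1 of H38K22.8 in dcn-1, held 9 reads.

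In cluster form the non-coding exon genes were compared with snoRNAs. Clusters wider than 26 nt, the longest reads selected, held 90.6% of their reads (89.0 to 92.1), and 84.5% (81.9 to 86.8) without K10H10.11. In snoRNA clusters the share was 85.1% (84.1 to 86.1), and in tRNA clusters 80.9% (77.4 to 84.1). Distinct sequences per 100 reads were 30.8 in the non-coding exon genes, 43.4 without K10H10.11, and 33.1 in snoRNA clusters, while annotated piRNA clusters held 2.09% of their reads in wide clusters. The difference between these classes was not tested.

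The second group, of non-coding transcripts without a coding label, was led by rpl-41.2, rncs-1 and F39E9.10. In rpl-41.2, which the deposited annotation names F54D7.7, 32 reads (21.9 to 45.2) lay in clusters of 193 and 51 nt on chromosome I. The WBcel235 gene table lists it as protein-coding, as it does rpl-41.1 (2 reads), Y116F11B.9 (2 reads) and sorb-1 (1 read), so that 37 of the 122 reads came from genes now listed as coding. ZC513.7 with 6 reads in 5 clusters and C53C7.5 with 3 reads in 3 clusters are listed as pseudogenes. These 9 reads were the only ones from genes of the group that the table calls pseudogenes.

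rncs-1 (F55A4.9), a non-coding RNA with a long hairpin that is known to inhibit Dicer, had 30 reads (20.2 to 42.8) in 7 clusters on chromosome X. The clusters were 19 to 55 nt wide and held 11, 5, 5, 4, 3, 1 and 1 reads, the leading cluster lying in exon 2 at 1012060 to 1012114. All 30 reads were different sequences. They held 7 edits to the genome, or 23.3 per 100 reads, against 2.06 per 100 reads over all clusters described here and 1.97 over all nuclear clusters. The uniqueness value of the 5 clusters with 3 or more reads was 4 to 24, below the median of 42. No antisense read was listed on rncs-1, and a count of 0 allows up to 3.

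tts-1 (F09E10.11), a long non-coding RNA linked to lifespan, had 7 reads (2.81 to 14.4) in 3 clusters on chromosome X, of which 5 lay at 1504538 to 1504594. tts-2 had 1 read. C30E1.9 had 15 reads (8.40 to 24.7) in 9 clusters. Of the regulatory non-coding RNAs looked up, rncs-1, tts-1 and tts-2 therefore had reads, and no nuclear cluster names lep-5 by its identifier. None of 170 linc genes, 57 anr genes, 72 histone genes and 31 major sperm protein genes was among the clusters described here. No nuclear cluster of any class names one of them by its identifier. This lookup misses genes that the list names in another way. It found 6 of 78 ribosomal protein genes, although 536 sense coding exon clusters without a non-coding label name such genes. For these genes and lep-5, absent reads, absence from the deposited annotation and naming without an identifier therefore cannot be told apart. None of 30 genes for spliced leader RNA was among the clusters described here either. The 9 nuclear clusters that name a spliced leader gene by its identifier carry the snRNA label and held 29 reads.

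By reads, though not by clusters, most of the third group came from ribosomal protein genes. In 4 of its 50 genes, rpl-3, rpl-12, rpl-1 and rpl-7A, lay 406 of the 688 reads, or 59.0% (55.2 to 62.7), but 52 of the 264 clusters, the other 46 genes having 212. These genes encode proteins of the large ribosomal subunit. Nearly all clusters of the group carry an exon label beside the coding label, 257 of 264 clusters with 666 reads. Some of them also carry an intron label, for example in rpl-3, rpl-12 and dpy-21. Which transcript uses the exon was not resolved for those. Reads of the coding and the non-coding transcript were not told apart by these labels.

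rpl-3 (F13B10.2) had 193 reads (167 to 222) in 25 clusters on chromosome III, of which 173 were distinct sequences. Exon 1 held 58 reads, exon 2 held 15, exon 3 held 73 and exon 4 held 35. The leading clusters held 29 reads each, at 3868108 to 3868201 in exon 1 and 3869188 to 3869270 in exon 4. The cluster in exon 1 also carries the label of intron 1, and other exon clusters of the gene carry an intron label as well. Reads thus lay in clusters labelled with each of the 4 exons. A further 12 reads lay in 2 clusters of 22 and 24 nt labelled with intron 3 and no exon, with 6 reads each.

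rpl-12 (JC8.3) had 84 reads (67.0 to 104) in 10 clusters on chromosome IV. It was led by 26 reads at 13240492 to 13240568, labelled both exon 1 and intron 1. rpl-1, which the WBcel235 table names rpl-10a, had 73 reads (57.2 to 91.8) in 11 clusters on chromosome I, and rpl-7A had 56 (42.3 to 72.7) in 6 clusters on chromosome IV. An intronic snoRNA cluster of rpl-7A with 76 reads was not counted here because of its snoRNA label. Per 100 covered nt the level was 18.6 to 21.3 reads in these 4 genes, and it was 44.8 in rpr-1 and 127 in yrn-1.

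Outside ribosomal protein genes the reads were sparse. ddx-17 (F58E10.3), a DEAD-box RNA helicase gene, had 58 reads (44.0 to 75.0) in 25 clusters, 44 of the reads in exon 2. Y69H2.3 had 19 reads in 14 clusters, dpy-21, a gene of dosage compensation, 18 in 17, and sel-10, which encodes an F-box protein, 16 in 12. Y41E3.1 had 14 reads and nars-1, the asparaginyl-tRNA synthetase gene, 12. pir-1, whose product is an RNA phosphatase found with Dicer, had 1 read. Chromosome V held 34.6% of the clusters (29.6 to 39.8) against 15.1% of all nuclear clusters, and 25 of its 122 clusters were from ddx-17. By reads chromosome V held 7.70%.

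**Figure D4:**
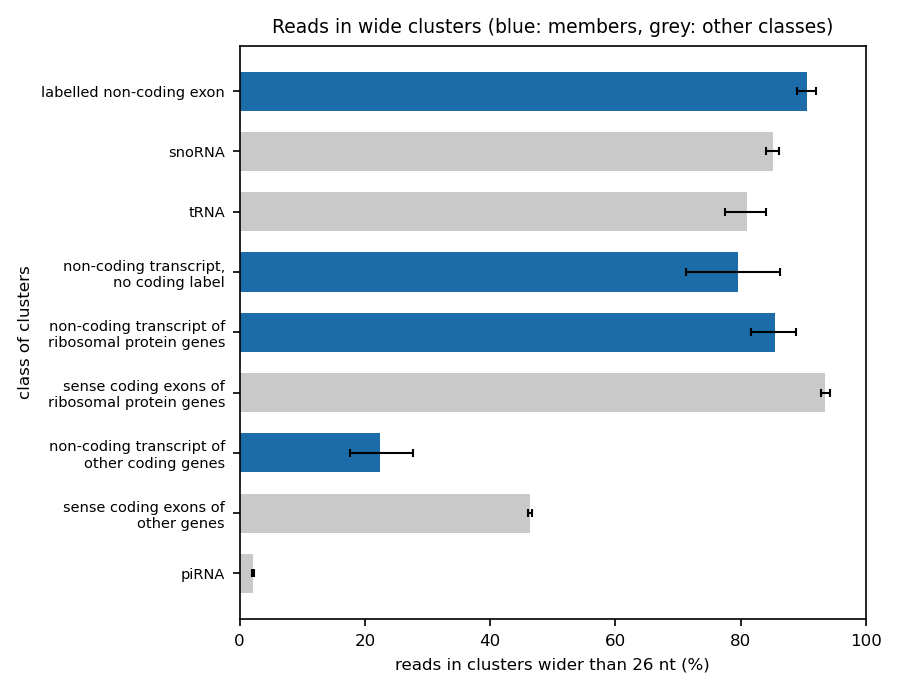
Share of reads in clusters wider than 26 nt, in percent, for the groups described here in blue and other classes of clusters in grey, with exact 95% intervals. Non-coding transcripts of ribosomal protein genes stand at 85.5% and those of other coding genes at 22.3%.

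The wide share split this group. In the 4 ribosomal protein genes 85.5% of reads (81.7 to 88.8) lay in clusters wider than 26 nt, and in the other 46 genes 22.3% (17.6 to 27.7). Sense coding exon clusters with no non-coding label had the same order, with 93.5% (92.7 to 94.2) in ribosomal protein genes and 46.4% (46.0 to 46.7) in other genes. Single-read clusters made up 25% (14.0 to 38.9) of the ribosomal protein clusters and 82.1% (76.2 to 87.0) of the others. A cluster widens as more reads overlap, and the part of depth in this difference was not tested.

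Narrow clusters, of 18 to 26 nt, numbered 271 of the 353 and held 441 reads, or 19.3% (17.7 to 20.98). Of these clusters, 42 were 19 nt wide, 42 were 21 nt, 33 were 22 nt and 19 were 24 nt. The share at 21 to 23 nt was 39.5% (33.6 to 45.6), and 41.4% (40.9 to 41.8) over all narrow nuclear clusters lay inside that interval. The share was 33.2% (32.7 to 33.7) in sense coding exon clusters and 87.8% (86.2 to 89.2) in annotated piRNA clusters. Of the 42 clusters at 21 nt, 13 lay on chromosome IV, where the worm piRNA loci are, or 31.0% (17.6 to 47.1). Of the 229 narrow clusters of other widths 29 did, or 12.7% (8.65 to 17.7). Of all nuclear clusters 22.4% lay on chromosome IV, a share inside the interval at 21 nt. The intervals at 21 nt and at other widths overlap at their ends, and no test was made.

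C27H2.2 accounted for 3 of these 13 clusters, each made of 1 sequence, with 1, 4 and 5 reads. They lay 105, 517 and 1684 nt from the nearest annotated piRNA cluster, and the same transcript unit held 4 annotated piRNA clusters in sense with 36 reads and others in antisense with 15. A total of 8 of the 13 clusters lay within 10 kb of an annotated piRNA cluster, among them those of Y51H4A.27, Y45F10B.16 and sorb-1. The 8 are not all separate loci, as C27H2.2 gave 3 of them. Distance was not measured for clusters of other widths on chromosome IV, so this count has no share to be set against.

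Reads antisense to the same genes were counted next. The genes were chosen by their sense clusters, so each has sense reads, and genes with antisense reads alone cannot appear. The antisense shares hold for genes chosen in this way only. On 33 of the 87 genes there were 243 antisense reads in 72 clusters. They made up 9.61% (8.49 to 10.8) of the sum of antisense reads and sense reads in the clusters described here. Other sense clusters of these genes are not counted, and they held 76 reads on rpl-7A, 36 on C27H2.2 and 7 on Y57G11C.22. Antisense clusters were counted whatever their label. The share was 2.38% (1.67 to 3.28) for non-coding exon genes, 8.02% (6.18 to 10.2) for non-coding transcripts of coding genes and 54.6% (48.5 to 60.7) for the second group. Without F39E9.10, which held 131 antisense reads, the second group had 16 antisense and 98 sense reads, or 14.0% (8.24 to 21.8).

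F39E9.10, which the WBcel235 table types as lncRNA, had 24 sense reads (15.4 to 35.7) in 3 clusters, led by 14 at II 3302932 to 3302961. Opposite it lay 131 antisense reads (110 to 155) in 7 clusters. The widest, 54 nt at 3302903 to 3302956, held 73 reads of 15 distinct sequences. Clusters of 23 nt at 3303297 to 3303319 and 22 nt at 3303242 to 3303263 held 22 and 18 reads. A 24 nt cluster held 11, a 20 nt cluster 5, and the remaining pair 1 each. None of these clusters carried a label of another gene in sense. Antisense reads thus outnumbered sense reads in this gene, whereas K10H10.11, F08G2.13, Y51H4A.27, W01D2.8 and rpl-3 had no antisense read.

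**Figure D5:**
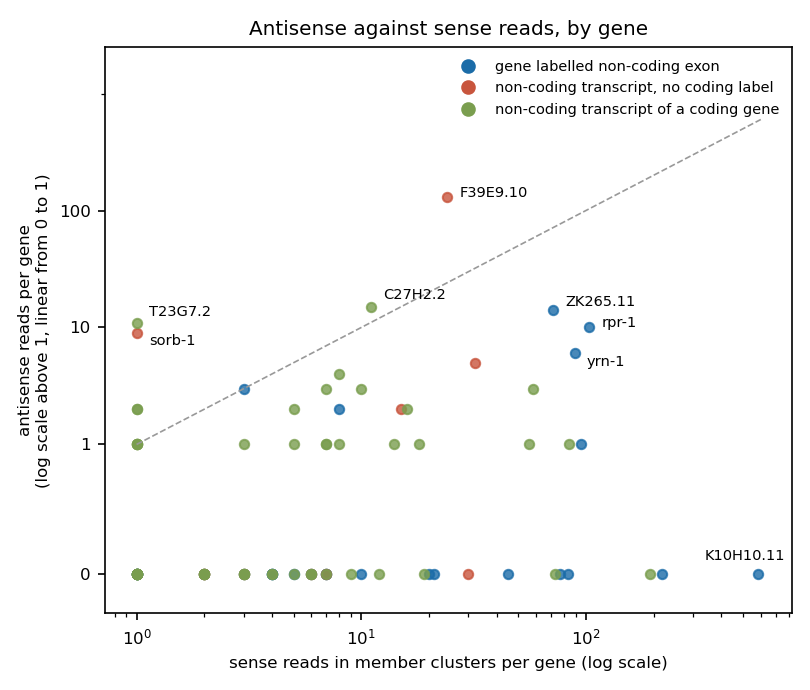
Antisense reads against sense reads in the clusters described here for each of the 87 genes, with a dashed line of equal numbers. The horizontal axis is log, and the vertical axis is linear from 0 to 1 and log above. F39E9.10 lies above the line with 131 antisense and 24 sense reads, while ZK265.11 (14 and 71) and rpr-1 (10 and 103) lie below it.

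The other genes held 112 of the 243 antisense reads. Antisense reads also exceeded the sense reads counted here in 5 further genes. In C27H2.2 the antisense reads were 15 against 11, all 15 with a piRNA label. The 11 leave out 36 sense reads of this gene that carry a piRNA label, so the strands were not counted alike there. With those 36 included, sense reads exceed antisense reads in C27H2.2. In sorb-1 they were 9 against 1, 7 of them with a piRNA label, and in aars-1 and mlcd-1 2 against 1. ZK265.11 had 14 (7.65 to 23.5) in a 27 nt cluster at I 8245572 to 8245598, opposite the gap between its sense clusters and overlapping 20 nt of them. rpr-1 had 10 antisense reads and yrn-1 6. On rpr-1, 6 of the 10 lay in a 48 nt cluster that lies whole opposite a sense cluster. On yrn-1, 5 of the 6 lay in a 33 nt cluster opposite the 5′ sense cluster. All antisense reads on these genes carry the label of a coding intron in sense, and reads of that intron cannot be told apart from antisense RNA of the non-coding gene. T23G7.2 had 1 sense and 11 antisense reads, 10 of the latter in coding exons of a gene on the opposite strand. Of all antisense clusters, 19 with 33 reads had a coding label in sense and 6 with 22 reads a piRNA label. By width, narrow antisense clusters were most frequent at 22 nt with 19 of 68, and at 21 nt with 17. These counts include the clusters with a piRNA label, and no share over all antisense clusters was set beside them.

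Edits to the genome numbered 47 in the 2285 reads, of which K10H10.11 held 15 and rncs-1 7.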

How the data were processed

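The deposited list gives clusters of overlapping reads and was assigned to the monophosphate library by its name, since no label ties it to a sample. The authors deposited raw read counts per cluster, without normalization, with distinct sequences, edits, width, a uniqueness value and annotation on both strands. A separate deposited column counts conversion events and a deposited score column holds an entropy; neither is reported here. Per the submitters' processing notes Bowtie2 2.1.0 was used; the sources used here do not give the build, the annotation release or the filters. As the list is named for reads of 18 to 26 nt, its total does not measure library depth.

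Clusters were selected by annotation labels with Python 3.11.15 and pandas 2.3.3, and assigned to genes by the names each holds. A symbol was found for 79 of 85 identifiers. WBcel235 gene types were used for names and types only. Exact intervals (Clopper-Pearson, Poisson; SciPy 1.17.1) cover counting error only, since no molecular identifiers were used in counting. A count of 0 allows 3 counts. Exon numbers are those of the first transcript named. Named were the 20 leading clusters, the 5 leading genes per label and the members of the lists looked up (Y RNA, spliced leader RNA, RNase P and MRP RNA, regulatory RNAs, linc and anr genes, histone, ribosomal protein and sperm protein genes); no gene of the table is named for signal recognition particle RNA or as a stem-bulge RNA. Genes named beyond these were chosen after their values were seen. The clusters and lists were chosen with earlier results of these data known. The selection was tested on simulated data. Sequences are not printed.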

Additional observations from a re-analysis of the deposited data

How the results depend on the processing

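The 10 shares and medians were recomputed under 6 alternatives, and 34 of the 60 recomputed values stayed within the counting interval of the reported value. Of these 34, at least 10 could not move: the pseudogene share, which is 0 because the list has no such label, under all 6 alternatives, and 4 cluster-based values when distinct sequences replaced reads. Of the other 50, 24 stayed. These 24 include the share at 21 to 23 nt without the cluster with the most reads. It could not move either, as that cluster is 48 nt wide. The other 26 were as follows, with the cause not tested beyond the alternatives' own construction. With distinct sequences in place of reads, these clusters held 0.972% of the nuclear total (0.162% by reads), the leading cluster 4.93% (23.8%), the leading 10 genes 59.1% (70.1%) and narrow clusters 27.2% (19.3%). Among clusters with at least 2 reads, they were 0.974% of clusters (0.712%) and 0.150% of reads, with a median of 4.5 reads (1) and 32 nt (23). There the leading cluster held 26.5%, the leading 10 genes 77.3%, narrow clusters 10.3%, and coding exon clusters were 59.7% (74.8%). Without clusters that hold a coding exon in sense, which sets that share to 0%, they were 0.180% of clusters and 0.114% of reads, with medians of 2 reads and 25 nt. There the leading cluster held 33.8%, the leading 10 genes 86.9% and narrow clusters 11.1%, and 48.1% of narrow clusters were 21 to 23 nt wide (39.5%). Without the cluster with the most reads, in K10H10.11, the shares were 0.123% of reads, 12.5% in the leading cluster, 62.4% in the leading 10 genes and 25.3% in narrow clusters. At a uniqueness value of at least 10 the leading 10 genes held 72.0%. Leaving out clusters with as many edits as reads moved none of the 9 values that could move. No paired analysis was possible because each group has 1 library and 1 of them was analysed. Depth limits genes with 1 to 9 reads, whose intervals span several-fold.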
